A study of Mus musculus with 22 samples.

Results

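Serum response factor (SRF), the EGR transcription factors, the IER proteins and the NR4A nuclear receptors were followed in bone marrow-derived macrophages (BMDM) with and without lipopolysaccharide (LPS). The set held 10 genes, Srf, Egr1, Egr2, Egr3, Ier2, Ier3, Ier5, Nr4a1, Nr4a2 and Nr4a3, taken as all array probes whose RefSeq accession maps to one of these symbols. They were 10 of the 22384 genes tested and were measured by 13 probes, all of which passed the filter on dim probes. Srf, Ier5 and Nr4a2 had 2 probes each, and the probe with the higher mean signal stood for the gene unless the other is named. The rule for matching probes used accessions, while the genes themselves were chosen with earlier results of these data known.

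The BMDM came from C57BL/6 mice labelled male and aged 10 to 14 weeks, either wild type (wt), lacking the protein kinase MK2 (MK2-/-) or lacking both MK2 and MK3 (MK2/3-/-). Ages differed by genotype, at 12 to 13 weeks in wt, 10 to 13 in MK2-/- and 11 to 14 in MK2/3-/- mice. All cells were grown for 9 days with 10 ng/ml M-CSF and moved to M-CSF-free medium before the experiment. They were then kept for 360 min with 100 ng/ml LPS, the endotoxin of Gram-negative bacteria, or with medium alone. The 22 arrays fell into wt with medium (n = 4) and LPS (n = 3), MK2-/- with medium (n = 4) and LPS (n = 4), and MK2/3-/- with medium (n = 3) and LPS (n = 4). BMDM lacking only MK3 were not analysed here, so MK3 loss was seen only on top of MK2 loss. The labels number the replicates without saying which animal each came from, so p-values measure the spread between these samples.

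Immediate-early genes are switched on within minutes of a stimulus without new protein synthesis. SRF binds CArG boxes in many of their promoters, together with ternary complex factors that are activated through ERK and other MAP kinases, or with the actin-regulated MRTF coactivators, and SRF has been described as a substrate of MK2. EGR1, EGR2 and EGR3 are zinc-finger transcription factors held back by NAB corepressors. NR4A1, NR4A2 and NR4A3 are nuclear receptors that work without a known physiological ligand, are induced through CREB and SRF sites, and temper inflammatory transcription in macrophages.

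Promoters are shown for matches to sites of SRF and of CREB, which some members held, and the Srf and Egr2 promoters shown held both. Windows of 250 bases before the annotated start were read from RefSeq (GRCm38.p6) for 7 of the 10 genes, Srf, Egr2, Ier3, Ier5, Nr4a1, Nr4a2 and Nr4a3, while Egr1, Egr3 and Ier2 were not analysed here. In the first pair of sequences, written 5′ to 3′ on the strand of the gene, capitals mark matches to the strict CArG box. The Srf window lies at chr17:46556163-46556412 on the minus strand, and the Egr2 window at chr10:67537619-67537868 on the plus strand.
Srf: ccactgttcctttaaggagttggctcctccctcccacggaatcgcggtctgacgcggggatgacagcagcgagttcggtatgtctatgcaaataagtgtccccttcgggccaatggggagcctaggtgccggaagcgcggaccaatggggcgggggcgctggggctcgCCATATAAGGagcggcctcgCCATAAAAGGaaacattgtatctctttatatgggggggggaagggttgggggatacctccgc
Egr2: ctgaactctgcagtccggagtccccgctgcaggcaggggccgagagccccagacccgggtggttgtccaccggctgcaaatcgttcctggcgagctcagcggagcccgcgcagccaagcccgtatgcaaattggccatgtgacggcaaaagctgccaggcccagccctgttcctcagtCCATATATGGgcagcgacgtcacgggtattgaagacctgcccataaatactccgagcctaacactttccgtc

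Srf held 2 CArG boxes, which began 82 and 62 bases before the start. A CArG box stood in 1.47% of all 32851 windows of this length in the table, and at least 2 stood in 0.0183%. The Egr2 box shown began 72 bases before the start, and 4 of the 5 start sites listed for Egr2 had a CArG box in their window, with overlap between windows. The windows of Ier3, Ier5, Nr4a1, Nr4a2 and Nr4a3 held no match to these letters.

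The NR4A windows instead held repeated half-sites of the cyclic AMP response element (TGACG or, on the other strand, CGTCA), the site bound by CREB. Capitals mark these half-sites in the windows at chr15:101266596-101266845 (Nr4a1, plus strand), chr2:57124004-57124253 (Nr4a2, minus strand) and chr4:48045055-48045304 (Nr4a3, plus strand).
Nr4a1: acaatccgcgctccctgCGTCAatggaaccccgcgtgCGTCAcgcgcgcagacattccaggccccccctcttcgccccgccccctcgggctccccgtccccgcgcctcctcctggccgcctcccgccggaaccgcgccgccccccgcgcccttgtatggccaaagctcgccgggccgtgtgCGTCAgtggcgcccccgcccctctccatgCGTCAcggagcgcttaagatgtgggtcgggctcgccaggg
Nr4a2: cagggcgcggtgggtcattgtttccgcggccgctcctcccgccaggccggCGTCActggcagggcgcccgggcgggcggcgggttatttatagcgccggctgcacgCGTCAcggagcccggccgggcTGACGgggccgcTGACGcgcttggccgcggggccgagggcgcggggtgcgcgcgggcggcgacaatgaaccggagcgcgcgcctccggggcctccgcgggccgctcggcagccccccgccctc
Nr4a3: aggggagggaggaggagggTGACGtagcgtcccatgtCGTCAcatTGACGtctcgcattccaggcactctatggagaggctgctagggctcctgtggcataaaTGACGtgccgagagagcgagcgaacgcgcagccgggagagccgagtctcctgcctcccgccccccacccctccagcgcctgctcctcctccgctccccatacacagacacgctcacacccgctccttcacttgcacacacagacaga

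Each of the 3 NR4A windows had 4 half-sites. At least 1 half-site stood in 17.8% of all windows and at least 4 stood in 0.137%. Srf had 1 half-site, the Egr2 window shown had 2, and Ier3 and Ier5 had none. The full palindrome TGACGTCA, present in 1.55% of all windows, and the NR4A response element AAAGGTCA, present in 1.34% on either strand, were in none of the 7 genes' windows. These matches describe letters only and were not tested as binding sites.

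Before the results, the arrays were checked. Mapkapk2, which encodes MK2, was lower in LPS-treated MK2-/- BMDM (11.25 to 11.95 on the log2 signal scale) and MK2/3-/- BMDM (10.86 to 11.22) than in wt BMDM (14.28 to 15.33). Mapkapk3, which encodes MK3, was lower only in MK2/3-/- BMDM (7.65 to 8.55 with LPS, against 11.94 to 12.23 in wt). All 6 macrophage markers measured on every array (of 8 listed) were well above background on all 22 arrays. The arrays of one genotype shared 1 slide, so genotype and slide cannot be told apart when genotypes are compared directly, whereas LPS and medium arrays of a genotype lay on the same slide. In MK2-/- BMDM, replicate 3 of both treatments, although labelled male, had Y-linked Ddx3y near 2 (1.99 and 2.01, against 10.09 to 11.26 on the other arrays), and replicate 4 of wt medium had the highest Il6 of the medium arrays (13.36). The other wt medium arrays, at 6.41 to 10.02, were also mostly above the knockout medium arrays (4.88 to 6.55). Of 7 LPS response genes measured as a check, 4 were lower in MK2-/- than in wt medium (Il6 by -3.90, Ptgs2 by -3.12, Ccl2 by -2.22 and Cxcl2 by -1.65) and 1 was lower in MK2/3-/- than in wt medium (Ccl2 by -1.84), so the wt baseline of the LPS responses and of their differences was higher for these genes. The part of this baseline in the members' responses was not tested. Fibroblast signal varied widely between cultures. The 4 listed fibroblast markers averaged 10.36 to 10.88 in LPS-treated wt, 8.22 to 10.66 in LPS-treated MK2-/- and 7.94 to 11.03 in LPS-treated MK2/3-/- BMDM, and Col1a1, Col1a2 and Col3a1 were well above background on all 22 arrays. The mean of the 4 dendritic cell markers, Flt3, Zbtb46, Xcr1 and Ccr7, was higher on all LPS-treated MK2/3-/- arrays (9.01 to 9.77) than in LPS-treated wt (7.89 to 8.25) and MK2-/- BMDM (7.94 to 8.48). With LPS, Zbtb46 and Ccr7 overlapped between MK2/3-/- (10.37 to 11.92 and 13.295 to 14.85) and MK2-/- BMDM (10.32 to 11.05 and 13.25 to 14.82). Both also overlapped with wt, as did Flt3, so only Xcr1 was apart from both genotypes. Xcr1 was well above background on 4 of 4 LPS-treated MK2/3-/- arrays (5.06 to 6.25) and on none of the LPS-treated wt (2.53 to 4.36) or MK2-/- arrays (2.03 to 4.20). The part of dendritic cell signal in the MK2/3-/- differences, those of Ier5, Egr2, Egr1, Nr4a2 and Crem among them, was not tested.

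The first question was which members still responded to LPS at 360 min within each genotype. In wt BMDM, 5 of the 10 genes rose and none fell (18.6% of all genes tested rose and 23.5% fell). In MK2-/- BMDM, 6 rose and none fell (17.5% and 27.1% of all genes). In MK2/3-/- BMDM, 6 rose and 1 fell (20.2% and 27.9% of all genes). Calls rest on a limma adjusted p below 0.05 over all 22384 genes. The median change of the 10 genes was 0.61 in wt, 1.73 in MK2-/- and 1.61 in MK2/3-/- BMDM on the log2 scale, compared with -0.04, -0.01 and 0.01 over all genes. Egr1, Ier2, Ier3 and Nr4a3 rose in all 3 genotypes, though Nr4a3 passed the filter on dim probes through LPS-treated arrays alone.

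**Figure D1:**
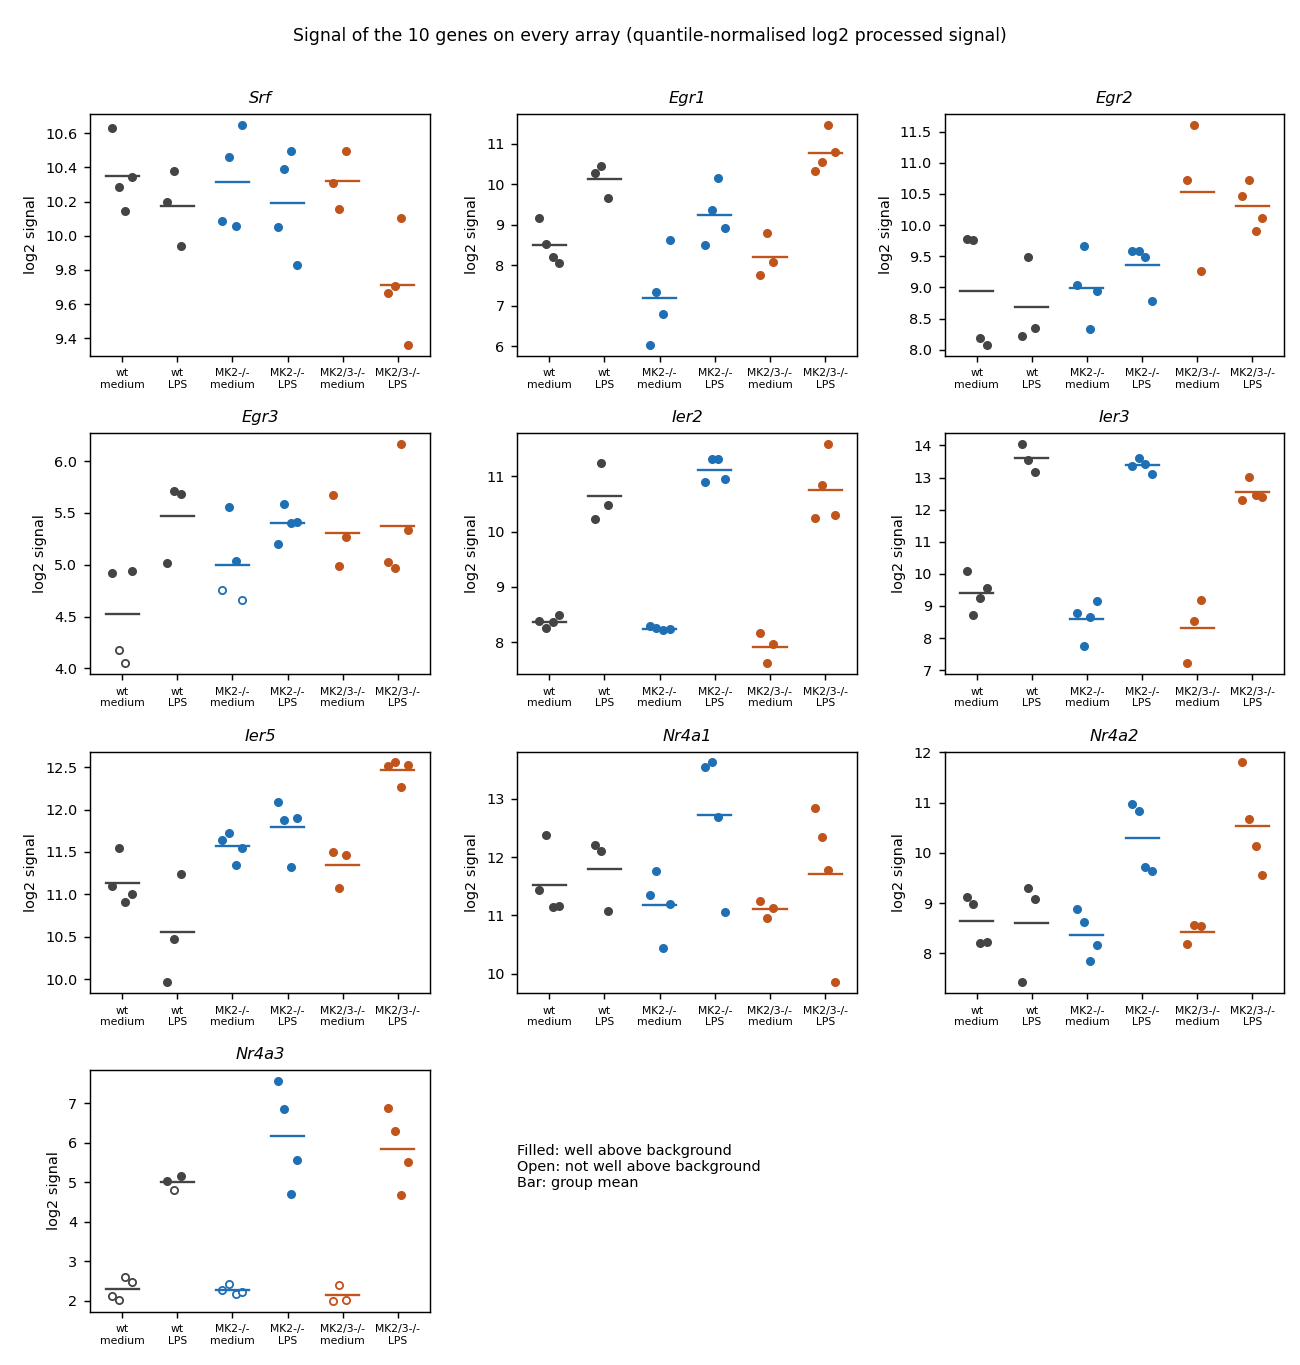
Quantile-normalised log2 processed signal of each gene (y axis) on every array, in 6 groups by genotype and treatment (x axis). Points are arrays, filled where the probe was well above background and open where it was not, and bars are group means. Ier3 in wt BMDM goes from 8.71 to 10.10 in medium to 13.19 to 14.05 with LPS, while Srf stays between 9.36 and 10.65 on all arrays.

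Srf itself changed least among the 10 genes, with group means that spanned 0.64 on the log2 scale. Its signal in wt BMDM was 10.63, 10.29, 10.14 and 10.34 in medium and 10.20, 10.38 and 9.94 with LPS, so the groups overlapped. The MK2/3-/- arrays read 10.31, 10.15 and 10.49 in medium and 9.67, 9.71, 10.10 and 9.36 with LPS, with every LPS array below every medium array. Srf fell there by 0.61 on the log2 scale (SE 0.21, adjusted p = 0.0231). Without MK2/3-/- LPS replicate 4, medium replicate 1 or medium replicate 3 the adjusted p was 0.0522 to 0.0968. The second Srf probe gave -0.33 (adjusted p = 0.45) for the same comparison, with overlapping groups, so the 2 probes differed in the call.

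Among the EGR factors, Egr1, which links growth and stress signals to transcription, rose in every genotype. In wt BMDM it went from 9.17, 8.52, 8.20 and 8.05 in medium to 10.27, 10.44 and 9.64 with LPS, a rise of 1.64 on the log2 scale or 3.11-fold (SE 0.49, adjusted p = 0.0115). Without wt LPS replicate 2 the rise was 1.47 with an adjusted p of 0.0528. In MK2-/- BMDM it went from 6.04, 7.33, 6.80 and 8.61 to 8.51, 9.36, 10.14 and 8.91, which overlapped through medium replicate 4, with a rise of 2.03 (SE 0.45, adjusted p = 0.00105). In MK2/3-/- BMDM it went from 7.76, 8.78 and 8.09 to 10.31, 10.55, 11.45 and 10.78, a rise of 2.57 or 5.92-fold (SE 0.49, adjusted p = 0.000231). Every LPS-treated array of that genotype lay above every medium array.

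Egr2, which takes part in macrophage differentiation, was not called after LPS in any genotype (-0.26 in wt, 0.36 in MK2-/- and -0.23 in MK2/3-/- BMDM on the log2 scale). Egr3 was dim, with 18 of 22 arrays well above background. It rose in wt BMDM from 4.92, 4.18, 4.05 and 4.94 to 5.02, 5.71 and 5.68, by 0.95 (SE 0.31, adjusted p = 0.0186). Of the 4 wt medium arrays, replicates 2 and 3 were not well above background. That call was lost without wt LPS replicate 2 or 3 or wt medium replicate 2 or 3 (adjusted p = 0.0545 to 0.0817). Egr3 gave 0.40 (MK2-/-) and 0.06 (MK2/3-/-), neither called, and the difference of its response between MK2/3-/- and wt was -0.88 (SE 0.44, adjusted p = 0.464), so a difference between genotypes was not shown.

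Ier3 gave the largest fitted responses of the set, although the size of that of Nr4a3 is uncertain, since its medium signal was not well above background. Ier3 encodes a stress-inducible protein linked to cell survival. It went in wt BMDM from 10.10, 8.71, 9.24 and 9.55 to 14.05, 13.55 and 13.19, a rise of 4.20 on the log2 scale or 18.3-fold (SE 0.41, adjusted p = 1.34e-07). It rose by 4.79 or 27.6-fold in MK2-/- BMDM, from 8.78, 7.76, 8.65 and 9.17 to 13.36, 13.60, 13.42 and 13.12. It rose by 4.24 or 18.9-fold in MK2/3-/- BMDM, from 7.22, 8.53 and 9.18 to 12.30, 13.02, 12.46 and 12.40. In each genotype the LPS and medium arrays were far apart relative to the spread within a group.

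Ier2, which encodes a nuclear protein, was nearly constant in medium, with 8.39, 8.26, 8.36 and 8.49 in wt, 8.29, 8.25, 8.22 and 8.24 in MK2-/-, and 8.17, 7.62 and 7.97 in MK2/3-/- BMDM. With LPS it reached 10.22, 11.24 and 10.47 in wt, 10.89, 11.32, 11.30 and 10.96 in MK2-/-, and 10.24, 10.84, 11.58 and 10.30 in MK2/3-/- cells. The rises were 2.27 (SE 0.27), 2.87 (SE 0.25) and 2.82 (SE 0.27), or 4.82-fold, 7.29-fold and 7.07-fold, and no LPS array overlapped the medium arrays of its genotype. The adjusted p was at most 2.20e-06. None of the settings tried removed the calls of Ier2 or Ier3 within a genotype.

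Ier5, which encodes a regulator of heat shock factor HSF1, was the member whose LPS response was called as different between genotypes. In wt BMDM it was 11.09, 11.55, 10.91 and 11.00 in medium and 9.97, 10.48 and 11.24 with LPS, a difference of -0.58 (SE 0.25, adjusted p = 0.0708) that was not called. The MK2-/- arrays were at 11.65, 11.72, 11.35 and 11.55 in medium and 12.09, 11.88, 11.32 and 11.90 with LPS, a difference of 0.23 (SE 0.23, adjusted p = 0.458). Ier5 rose in MK2/3-/- BMDM from 11.50, 11.08 and 11.46 to 12.51, 12.55, 12.26 and 12.53, by 1.12 or 2.17-fold (SE 0.25, adjusted p = 0.000988), without overlap.

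The second Ier5 probe was called in wt BMDM instead. It fell there by 1.17 (SE 0.30, adjusted p = 0.00416), from 9.21, 9.31, 9.90 and 9.67 to 7.99, 8.29 and 8.79, with every LPS array below every medium array. In MK2/3-/- BMDM this probe gave 0.14 (SE 0.30, adjusted p = 0.736), with 10.14, 9.54 and 9.98 in medium and 10.35, 10.19, 9.45 and 10.13 with LPS. The 2 probes had the same sign in wt (-0.58 and -1.17) and in MK2/3-/- BMDM (1.12 and 0.14), and differed in which change was called.

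**Figure D2:**
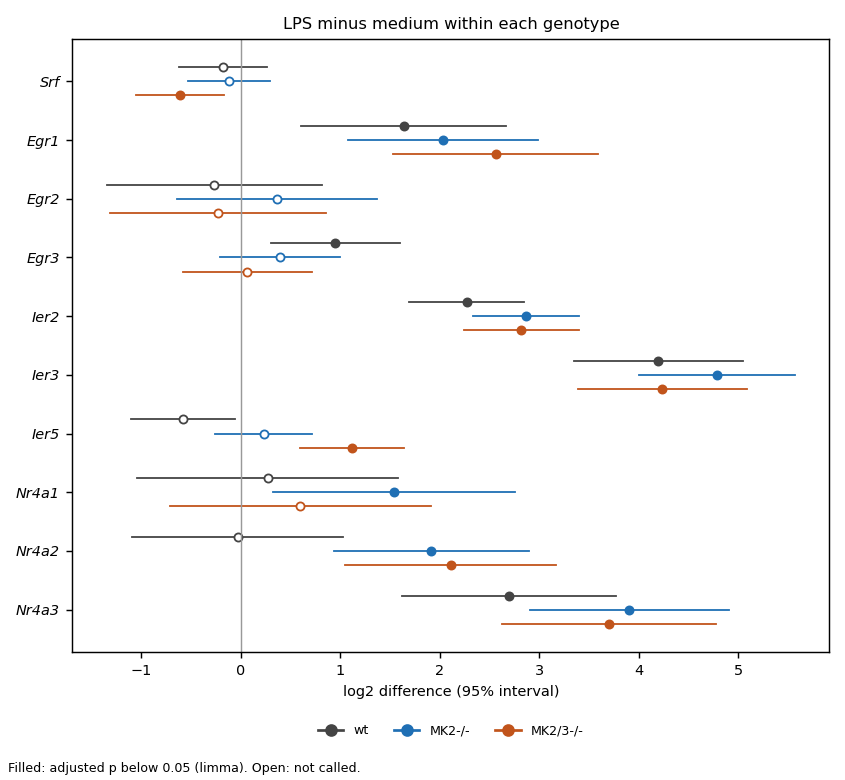
Change after LPS on the log2 scale (x axis, with 95% intervals) of each gene in wt, MK2-/- and MK2/3-/- BMDM. Filled points were called at an adjusted p below 0.05 and open points were not; Ier5 and Nr4a2 lie near or below 0 in wt BMDM and above it in MK2/3-/- BMDM.

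Of the NR4A receptors, Nr4a3 rose in all genotypes from a signal that was not well above background on any medium array. It passed the filter on dim probes through LPS-treated arrays alone, so it was tested only because of the groups where it was high. With LPS it reached 5.03, 4.80 and 5.16 in wt BMDM, where replicate 2 was not well above background. The MK2-/- arrays reached 7.56, 6.86, 4.71 and 5.57, and the MK2/3-/- arrays 6.88, 6.31, 4.67 and 5.51. The rise was called in wt (adjusted p = 0.000317), MK2-/- (adjusted p = 1.38e-06) and MK2/3-/- BMDM (adjusted p = 6.77e-06). Its size was also taken against the lowest signal well above background of any probe on each medium array. This gave 2.33-fold in wt, 6.39-fold in MK2-/- and 6.59-fold in MK2/3-/- BMDM. Egr3 was not well above background at signals of 4.75 and 4.66 in MK2-/- medium, so that floor is no upper limit for a dim probe. The folds are therefore not lower bounds, and they hold for the processed signal only. With normexp background correction and its offset of 50 the changes were smaller, 0.58 on the log2 scale in wt (adjusted p = 0.0548, call lost), 1.16 in MK2-/- and 0.97 in MK2/3-/- BMDM, both still called.

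Nr4a2, an orphan receptor that recruits the CoREST corepressor to inflammatory promoters, showed no change in wt BMDM that passed the test. Its signal there was 9.13, 8.99, 8.20 and 8.22 in medium and 7.43, 9.30 and 9.09 with LPS, with replicate 1 low. It rose in MK2-/- BMDM from 8.88, 8.62, 7.84 and 8.16 to 10.97, 10.84, 9.71 and 9.64, by 1.92 or 3.77-fold (SE 0.47, adjusted p = 0.00222). The rise in MK2/3-/- BMDM was from 8.19, 8.57 and 8.55 to 11.80, 10.67, 10.14 and 9.56, or 2.11 and 4.32-fold (SE 0.51, adjusted p = 0.00178). In both knockout genotypes every LPS array lay above every medium array.

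The second Nr4a2 probe gave the same calls after LPS. It rose by 1.40 in MK2-/- (SE 0.31, adjusted p = 0.00101) and by 1.66 in MK2/3-/- BMDM (SE 0.34, adjusted p = 0.00042), and gave 0.36 in wt BMDM (SE 0.34, adjusted p = 0.429). Its wt LPS arrays read 8.02, 8.30 and 7.84, so the low value of replicate 1 on the first probe was not seen on the second.

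Nr4a1, the receptor known as Nur77, varied widely between replicates. In MK2-/- BMDM it read 11.35, 11.76, 10.44 and 11.20 in medium and 13.55, 13.62, 12.69 and 11.06 with LPS, and rose by 1.54 (SE 0.58, adjusted p = 0.0365). Replicate 4 lay within the medium range. The call was lost without any one of 6 MK2-/- arrays, namely LPS replicates 1, 2 and 3 and medium replicates 1, 3 and 4 (adjusted p = 0.0558 to 0.118), and without both replicates 3 (1.31, adjusted p = 0.141). The MK2/3-/- LPS arrays spread from 9.86 to 12.85 around medium arrays of 11.24, 10.96 and 11.12, and the wt LPS arrays read 12.21, 12.11 and 11.08 against 11.43, 12.38, 11.14 and 11.16, with no call in either.

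The second question was whether the levels reached with LPS differed between genotypes. Against wt, MK2-/- BMDM had 2 of 10 members higher and none lower (4.52% of all genes were higher and 7.06% lower), and MK2/3-/- BMDM had 3 higher and none lower (9.61% and 14% of all genes). Between the knockouts, 1 member was higher and none lower in MK2/3-/- BMDM (7.74% and 5.8% of all genes). The median difference of the 10 genes was 0.57, 0.37 and -0.18 for these comparisons, and -0.03, -0.02 and -0.06 over all genes. Ier5 and Nr4a2 were higher in both knockout genotypes than in wt, Egr2 was higher in MK2/3-/- than in wt, and Egr1 was higher in MK2/3-/- than in MK2-/- BMDM. Comparisons with wt share the same 3 wt arrays.

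**Figure D3:**
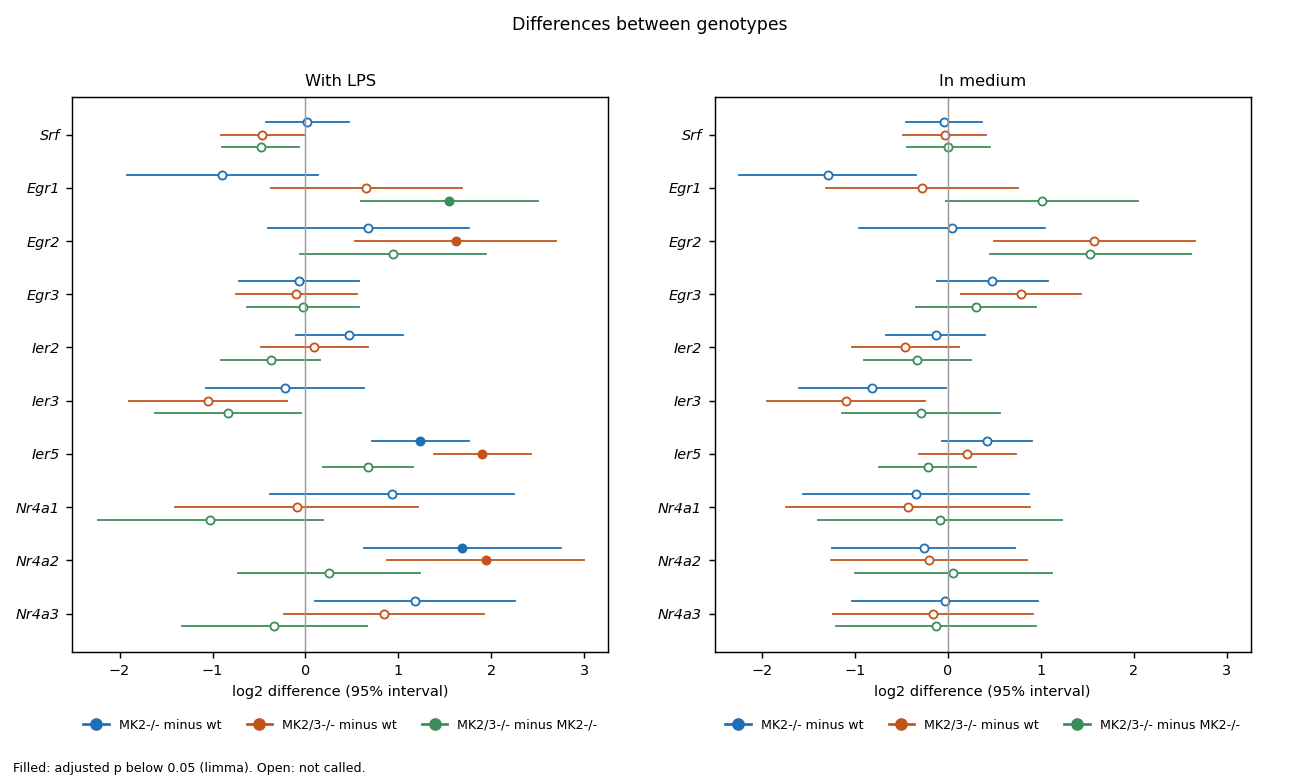
Differences between genotypes on the log2 scale (x axis, with 95% intervals) for each gene with LPS (left) and in medium (right). Filled points were called at an adjusted p below 0.05; they are Egr1, Egr2, Ier5 and Nr4a2 with LPS, and none in medium.

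With LPS, Ier5 ranged from 9.97 to 11.24 in wt, from 11.32 to 12.09 in MK2-/- and from 12.26 to 12.55 in MK2/3-/- BMDM, and the 3 groups did not overlap. It was 2.35-fold higher in MK2-/- than in wt (1.23 on the log2 scale, SE 0.25, adjusted p = 0.00622) and 3.74-fold higher in MK2/3-/- than in wt (1.90, SE 0.25, adjusted p = 8.28e-05). The difference between the knockouts was 0.67 (SE 0.23, adjusted p = 0.0613) and was not called. Both calls against wt were kept without any single array, while a fit of the compared groups alone gave an adjusted p of 0.0659 for MK2-/-. With the mean signal of 3 fibroblast collagen genes as a covariate the differences were 1.14 and 1.81, both called.

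On the second Ier5 probe, the difference from wt was 0.72 for MK2-/- (SE 0.30, adjusted p = 0.121), which was not called, and 1.67 for MK2/3-/- BMDM (SE 0.30, adjusted p = 0.000835). That probe called MK2/3-/- over MK2-/- BMDM, by 0.96 (SE 0.28, adjusted p = 0.0293). The 2 probes thus both called MK2/3-/- over wt and differed in the other comparisons.

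**Figure D4:**
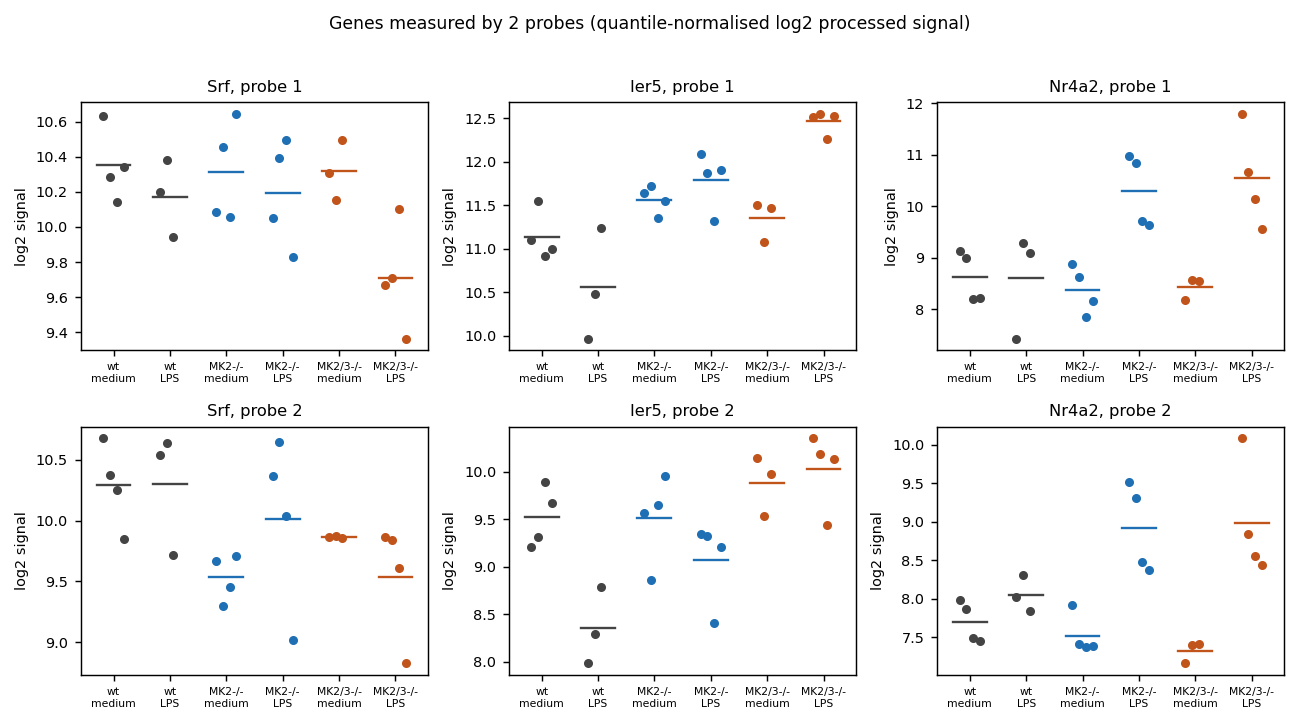
Log2 signal (y axis) of both probes of Srf, Ier5 and Nr4a2 on every array, by genotype and treatment (x axis), with bars for group means. For Ier5 with LPS the wt arrays are the lowest group on both probes, with 9.97 to 11.24 on probe 1 and 7.99 to 8.79 on probe 2.

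Nr4a2 with LPS was 3.22-fold higher in MK2-/- (1.69, SE 0.51, adjusted p = 0.0388) and 3.83-fold higher in MK2/3-/- than in wt BMDM (1.94, SE 0.51, adjusted p = 0.00994), with no overlap with the wt arrays. The knockouts differed from each other by 0.25 (95% interval -0.73 to 1.23). Wt LPS replicate 1, at 7.43, weighed on both differences. Without it the adjusted p was 0.0802 and the difference 1.35 for MK2/3-/-. For MK2-/- the call was lost without wt LPS replicate 1 or 3 or MK2-/- LPS replicate 1 or 2, with differences of 1.099 to 1.93 and adjusted p of 0.0554 to 0.194. The second probe gave 0.86 (adjusted p = 0.0974) and 0.92 (adjusted p = 0.0543), not called, although no knockout array overlapped the wt arrays.

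Fibroblast collagen signal differed between the same arrays as the NR4A signal in the knockouts. The mean log2 signal of Col1a1, Col1a2 and Col3a1 with LPS was 13.31, 11.12 and 11.90 in wt, 8.71, 8.31, 10.13 and 11.82 in MK2-/-, and 7.73, 8.25, 10.77 and 12.59 in MK2/3-/- BMDM. Dcn, the other listed fibroblast marker, did not follow these genes. With LPS it read 3.59, 8.11 and 7.28 in wt, and 9.03, 7.93, 7.92 and 7.17 in MK2-/- BMDM. In MK2/3-/- BMDM it read 8.56, 8.95, 8.85 and 6.33. In each genotype the LPS array with the most collagen signal had the least Dcn signal. The LPS-treated arrays with the lowest collagen signal, replicates 1 and 2 of each knockout, were those with the highest Nr4a2 and Nr4a3 signal, and within each knockout also the highest Nr4a1 signal. The order was not inverse throughout, since replicate 3 of each knockout had less collagen and less Nr4a3 signal than replicate 4, and in wt the array with the most collagen signal had the most Nr4a1. Replicate 4 of each knockout had collagen signal within the wt range, and its Nr4a2 signal was 9.64 in MK2-/- and 9.56 in MK2/3-/- BMDM, against at most 9.30 in wt. With the collagen mean as a covariate, the Nr4a2 difference with LPS was 1.26 for MK2-/- (SE 0.48, adjusted p = 0.132), which was not called, and 1.53 for MK2/3-/- (SE 0.48, adjusted p = 0.0335). The LPS responses of Nr4a2 within the knockouts were 1.89 and 2.17 with the covariate. Collagen ranges were alike with LPS and in medium, at 8.31 to 11.82 and 8.26 to 12.04 in MK2-/- BMDM. In MK2/3-/- BMDM they were 7.73 to 12.59 and 7.10 to 12.93. The covariate, fitted with a common slope for all arrays, could therefore change these responses little, and they do not test the part of fibroblasts. In these bulk samples, fewer cells of a type and less RNA per cell cannot be told apart, and the part of other cells in the NR4A values was otherwise not tested. Age also varied between these arrays. With LPS, replicates 1 to 4 came from mice of 10, 11, 12 and 13 weeks in MK2-/-, and of 11, 12, 14 and 12 weeks in MK2/3-/-. The wt mice were of 12, 13 and 12 weeks. The part of age in the NR4A values was not tested.

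**Figure D5:**
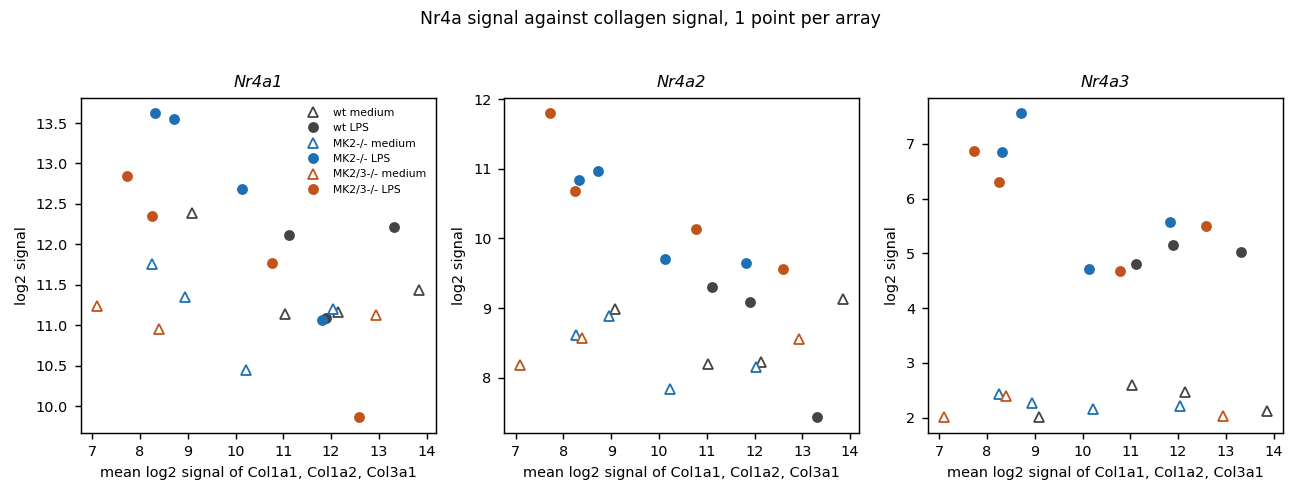
Log2 signal of Nr4a1, Nr4a2 and Nr4a3 (y axis) against the mean log2 signal of the collagen genes Col1a1, Col1a2 and Col3a1 (x axis), 1 point per array, circles with LPS and triangles in medium. LPS-treated knockout arrays with collagen signal of 7.73 to 8.71 have the highest Nr4a2, from 10.67 to 11.80.

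Nr4a3 with LPS was 1.18 higher in MK2-/- than in wt BMDM (SE 0.51, adjusted p = 0.134) and was not called, with 1 of the 3 wt arrays not well above background. It was called with 75th percentile scaling (1.83, adjusted p = 0.0194) and with array weights (1.75, adjusted p = 0.0056). Without both MK2-/- replicates 3, the arrays with low Y-linked signal, the difference was 1.67 (SE 0.47, adjusted p = 0.0359). For MK2/3-/- it was 0.85 (SE 0.51, adjusted p = 0.246). Nr4a1 overlapped between all genotypes with LPS.

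Egr2 with LPS read 8.22, 9.49 and 8.35 in wt, 9.58, 9.59, 9.49 and 8.78 in MK2-/- and 10.46, 10.72, 9.91 and 10.12 in MK2/3-/- BMDM, so that all MK2/3-/- arrays lay above all others. The difference between MK2/3-/- and wt was 1.61 or 3.06-fold (SE 0.52, adjusted p = 0.0302), and that between MK2/3-/- and MK2-/- was 0.94 (SE 0.48, adjusted p = 0.206). The call was lost without wt LPS replicate 1 or 3 or MK2/3-/- LPS replicate 1 or 2 (1.38 to 1.56, adjusted p = 0.0632 to 0.122), and with the collagen covariate (1.17, adjusted p = 0.0966). Egr2 was already high in MK2/3-/- medium arrays, at 10.72, 11.60 and 9.27, against 9.77, 9.76, 8.18 and 8.08 in wt and 9.04, 9.66, 8.34 and 8.95 in MK2-/- medium arrays. The medium differences, 1.58 from wt (adjusted p = 0.116) and 1.53 from MK2-/- (adjusted p = 0.13), were of similar size but not called.

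Egr1 with LPS was 2.92-fold higher in MK2/3-/- than in MK2-/- BMDM (1.55, SE 0.45, adjusted p = 0.0303), with arrays of 10.31 to 11.45 against 8.51 to 10.14. Against wt it was -0.89 in MK2-/- (SE 0.49, adjusted p = 0.233), not called. The call between the knockouts was lost without MK2-/- LPS replicate 1, 2 or 4 or MK2/3-/- LPS replicate 3 or 4 (1.31 to 1.59, adjusted p = 0.0548 to 0.105). With the collagen covariate the difference was 1.54 and was called. Collagen ranges of the 2 LPS-treated knockouts overlapped widely (8.31 to 11.82 and 7.73 to 12.59), so the covariate could change this difference little. In medium, Egr1 was -1.29 in MK2-/- against wt (SE 0.45, adjusted p = 0.082).

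Ier3 was the one member whose LPS-treated MK2/3-/- arrays, 12.30 to 13.02, all lay below those of wt (13.19 to 14.05) and MK2-/- (13.12 to 13.60). The differences, -1.05 (SE 0.41, adjusted p = 0.0676) and -0.83 (SE 0.38, adjusted p = 0.153), were not called. Against wt, Ier3 was called in 6 alternatives, among them 75th percentile scaling (-1.45, adjusted p = 0.00832) and normexp background correction (-1.03, adjusted p = 0.0344). In medium Ier3 was -1.09 in MK2/3-/- against wt (SE 0.41, adjusted p = 0.167). Srf in LPS-treated MK2/3-/- BMDM was -0.46 against wt (SE 0.21, adjusted p = 0.122), and was called with 75th percentile scaling only (-0.67, adjusted p = 0.0166). With that scaling 4 members were higher and 2 lower in MK2/3-/- than in wt BMDM. Ier2 and Egr3 overlapped between genotypes with LPS.

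In medium, none of the 10 genes was called by limma between genotypes, where 8.82% of all genes were called for MK2-/- against wt, 2.02% for MK2/3-/- against wt and 2.82% for MK2/3-/- against MK2-/-. At an unadjusted p below 0.05 there were 2, 3 and 1 members, beside 5798, 3784 and 3358 of the 22384 genes. The members' differences ranged from -1.29 to 0.48, from -1.09 to 1.58 and from -0.33 to 1.53. Egr3 in medium was higher on all MK2/3-/- arrays (4.98 to 5.67) than on all wt arrays (4.05 to 4.94), by 0.79 (SE 0.31, adjusted p = 0.193), and this was not called. Nr4a2 in medium differed from wt by -0.26 (95% interval -1.24 to 0.72) in MK2-/- and by -0.20 (95% interval -1.26 to 0.86) in MK2/3-/- BMDM.

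The third question was whether the LPS response itself differed between genotypes, a comparison in which an additive effect of the slide cancels. By limma no member and 0% of all genes were called for MK2-/- against wt (2 members and 1685 genes at an unadjusted p below 0.05). For MK2/3-/- against wt, 1 member and 0.679% of all genes were called. For MK2/3-/- against MK2-/-, no member and 0.067% of all genes were called (1 member and 1926 genes at an unadjusted p below 0.05). The member called was Ier5, whose response was 1.69 higher in MK2/3-/- than in wt BMDM (SE 0.35, 95% interval 0.95 to 2.43, adjusted p = 0.0357). Leaving out any one of 12 arrays raised its adjusted p to 0.0512 to 0.104, with differences of 1.40 to 1.77. These were wt LPS replicates 1 and 2, wt medium replicates 1 to 4, MK2-/- medium replicate 4, MK2/3-/- LPS replicates 1 and 2 and MK2/3-/- medium replicates 1 to 3. Without both MK2-/- replicates 3 and wt medium replicate 4 the difference was 1.74 (adjusted p = 0.0798). On the second probe it was 1.31 (SE 0.43, adjusted p = 0.164), not called.

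The other Ier5 differences of response were 0.81 for MK2-/- against wt (SE 0.34, adjusted p = 0.638) and 0.89 for MK2/3-/- against MK2-/- (SE 0.34, adjusted p = 0.47). For Nr4a2 the response was 1.95 higher in MK2-/- (SE 0.69, adjusted p = 0.505) and 2.14 higher in MK2/3-/- than in wt BMDM (SE 0.71, adjusted p = 0.187). So although Nr4a2 passed the test in both knockouts and not in wt, a difference of its response was not shown.

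Partners and neighbours of these genes in the pathway, taken from lists, were read in the same fit, beside shares of all genes of 18.6% higher and 23.5% lower after LPS in wt, 17.5% and 27.1% in MK2-/-, and 20.2% and 27.9% in MK2/3-/- BMDM. Of 6 measured SRF partners, none rose and 3 fell in wt, none rose and 4 fell in MK2-/-, and 1 rose and 4 fell in MK2/3-/- BMDM. None was called between LPS-treated genotypes, where 4.52% to 14% of all genes were called in one direction. Those with the largest changes in wt were the MRTF coactivators Mrtfb (-2.58) and Mrtfa (-1.91) and the ternary complex factor Elk3 (-1.39). The median of the list was -0.83 in wt, against -0.04 over all genes.

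Of 11 other SRF-linked immediate-early genes measured, 4 rose and 2 fell in wt BMDM (18.6% and 23.5% of all genes), and 4 rose and 1 fell in each knockout. Dusp1, a phosphatase of MAP kinases, rose by 3.72, Zfp36, which encodes the mRNA-destabilising protein tristetraprolin, by 3.25, and the AP-1 gene Junb by 2.65. With LPS, the antiproliferative gene Btg2 was higher in both knockouts than in wt (0.67, adjusted p = 0.047, and 0.81, adjusted p = 0.00945), as on the first probes of Ier5 and Nr4a2. In MK2/3-/- against wt, the survival gene Mcl1 was also higher (0.59) and Zfp36 lower (-1.04), and Fosb was lower in MK2/3-/- than in MK2-/- BMDM (-0.97).

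Of 12 SRF-linked cytoskeleton genes, none was called after LPS in wt BMDM, 1 rose and 1 fell in MK2-/-, and 1 rose in MK2/3-/- BMDM. In wt, Zyx (0.65), Flna (-0.48) and Acta2 (0.33) had the largest differences. Between LPS-treated genotypes only Vcl, which encodes vinculin, was called, at -1.86 in MK2/3-/- against wt. Its signal ranged from 8.87 to 10.92 in LPS-treated wt and from 7.11 to 9.24 in LPS-treated MK2/3-/- BMDM. Several of these genes are abundant in fibroblasts, and the part of the collagen signal in their differences was not tested.

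Of 6 EGR and NR4A partners, 1 rose and 3 fell in each genotype. The EGR corepressor Nab1 rose by 1.79 in wt, and Ier5l, a relative of Ier5, and the retinoid receptor Rxrb fell by 3.15 and 2.17. With LPS, Rxrb (-0.61) and the CoREST gene Rcor1 (-0.57) were lower in MK2/3-/- than in MK2-/- BMDM, and Ier5l (-1.47) was lower in MK2/3-/- than in wt.

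Of 12 upstream kinases and CREB family genes, 5 rose and 4 fell in wt BMDM (18.6% and 23.5% of all genes), 6 rose and 3 fell in MK2-/-, and 6 rose and 4 fell in MK2/3-/- BMDM. The kinase gene Map3k8, which acts upstream of ERK, rose by 3.72, and the RSK and MSK genes Rps6ka1 and Rps6ka5 fell by 3.58 and 2.03. Between LPS-treated genotypes, MK2/3-/- BMDM had less Map3k8 than wt BMDM (-0.71, adjusted p = 0.0386). Crem, a CREB family member whose short form represses cyclic AMP-responsive genes, was higher in MK2/3-/- BMDM (11.18 to 12.22) than in wt (10.18 to 10.43) and MK2-/- BMDM (9.91 to 10.91), by 1.29 (adjusted p = 0.000863) and 1.32 (adjusted p = 0.000507).

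As a check of the stimulus, Il6, Ccl2 and Ptgs2 rose in wt BMDM by 8.11, 7.65 and 7.13. The genes most like a member over the 22 arrays were listed by Pearson r, which describes mainly the separation of LPS from medium and comes with no test. For Ier3 they were Naa25 (0.981), Rab21 (0.976) and Mfsd7a (0.976), and for Nr4a3 H2ap (0.97), 4732471J01Rik (0.969) and Itgb8 (0.968). For Egr1 they were B430306N03Rik (0.907), Ublcp1 (0.9) and P4ha1 (0.895), and for Srf, whose range was small, Set (0.817), 4931406H21Rik (0.775) and Ankzf1 (0.775).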

How the data were processed

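Per the labels and methods, the authors labelled RNA with Cy3 and hybridised 22 samples, each on a separate Agilent 1-colour array. Their deposited scanner files, extracted with Agilent Feature Extraction 11.0.1.1 on a design annotated on mm9, hold a processed intensity per spot that is corrected for background and not normalised between arrays. The deposited table of log2 values came, by the authors' methods, from quantile normalisation with probe medians as baseline, and followed the scanner values with r of 0.993 to 0.999. It was used as an alternative.

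Control spots were left out, outlier-marked spots set to missing, and log2 processed signal quantile normalised over the 22 arrays. Spots of a probe were averaged. Kept probes carried an accession and exceeded background clearly on 3 or more arrays. They were named through RefSeq (GRCm38.p6), and the probe with the highest mean stood for its gene (22384 genes). The median processed signal per array was 32.7 to 108, and 61.1% to 82.7% of probes were well above background. The number of arrays, 3 or 4 per group, limits the precision.

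A mean for each of 6 groups was fitted with limma 3.58.1 in R 4.3.3 with eBayes, two-sided, Benjamini-Hochberg over all genes, and tested on simulated data. Second probes were adjusted over all kept probes. Figures were drawn with matplotlib 3.10.9. The members and gene lists were chosen with earlier results of these data known. Pathway genes were named if called between LPS-treated genotypes or in an interaction, or if among the 3 largest changes after LPS in wt of their list. Likeness named the 3 genes with the highest r for the member of widest range per family. Alternatives included scaling, background correction, filters, weights, blocks, the methods' t-test and leaving out each array. Arrays of the 120 min time point were not analysed here.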

Additional observations from a re-analysis of the deposited data

Results flagged for a closer look

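Of 52 groups of 4 arrays examined, 1 for each probe and group, 4 held an array whose gap to its nearest neighbour was large relative to the range of the group, where chance gives about 1 in 20. They were Egr2 in LPS-treated MK2-/- BMDM, with replicate 4 at 8.78 below the others, and Ier5 on its first probe in LPS-treated MK2/3-/- BMDM, with replicate 3 at 12.26 below the others. On the second probes, Ier5 in LPS-treated MK2-/- BMDM had replicate 3 at 8.41 below the others, and Nr4a2 in MK2-/- medium had replicate 1 at 7.91 above the others. Groups of 3 arrays were not examined in this way.

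The LPS response of Ier5 differed between genotypes, by 1.69 on the log2 scale between MK2/3-/- and wt BMDM (limma, adjusted p = 0.0357), with a rise in MK2/3-/- and a lower mean with LPS in wt. The call was lost in 15 of 38 alternatives, 12 of them among the 22 fits that leave out an array. On its other probe the difference was 1.31 and was not called (adjusted p = 0.164).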

How the results depend on the processing

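Each of the 120 values (10 genes in 12 comparisons) was recomputed under up to 40 alternatives, and none of the 25 calls turned direction. Calls kept throughout were those after LPS of Ier2 and Ier3 in all genotypes, of Egr1, Nr4a2 and Nr4a3 in both knockouts and of Ier5 in MK2/3-/-. None of the alternatives put the second Ier5 probe in place of the first. On that probe the MK2/3-/- change after LPS was 0.14 (limma, adjusted p = 0.736) and was not called. With 75th percentile scaling the median of all genes shifted by 0.28 to 0.34 after LPS, by 0.04 to 0.18 between genotypes with LPS and by 0.04 to 0.11 in medium. The share of calls that were higher then went from 44.2% to 60.5% (wt), 39.2% to 53.6% (MK2-/-) and 42.0% to 54.1% (MK2/3-/-) after LPS. With LPS it went from 39.0% to 63.7% (MK2-/- against wt), 40.7% to 57.3% (MK2/3-/- against wt) and 57.1% to 68.6% (MK2/3-/- against MK2-/-), and in medium, in the same order, from 64.7% to 84.0%, 74.1% to 90.1% and 70.7% to 89.5%. The members called with that scaling were 6 instead of 3 (MK2/3-/- against wt with LPS; 4 higher, 2 lower), 0 instead of 1 (MK2/3-/- against MK2-/- with LPS; Egr1 1.47, adjusted p = 0.0625), 1 and 2 instead of 0 in medium (MK2-/- and MK2/3-/- against wt), and 0 instead of 1 for the response (Ier5 1.86, adjusted p = 0.0748), with 8 instead of 5 calls on second probes. Over all genes, calls with LPS went from 5281 to 8192 and from 3031 to 2113 in these comparisons. In medium they went from 1974 to 4900 and from 452 to 4269, and for the response from 152 to 21. Array weights gave 4 instead of 2 (MK2-/- against wt with LPS) and 1 instead of 0 in medium for MK2/3-/- against wt and against MK2-/-. Calls over all genes then went from 2592 to 6417, from 452 to 2013 and from 632 to 1861. Normexp gave 2 instead of 1 between the knockouts with LPS, beside 3104 instead of 3031 of all genes. Fitting only the groups compared gave 0 calls for MK2-/- against wt and for the knockouts with LPS (1698 and 1294 of all genes). It gave 0 for the response of MK2/3-/- against wt (14 of all genes). The methods' t-test gave 0 calls between any genotypes with LPS after Benjamini-Hochberg. Unadjusted it gave 4 between the knockouts with LPS and 2 and 1 in medium (MK2-/- and MK2/3-/- against wt). Over all genes these unadjusted calls were 4416, 5637 and 4970. The collagen covariate and the probe with the highest induction each gave 1 for MK2-/- against wt with LPS, beside 1032 and 2608 of all genes. Without the MK2-/- replicates 3 and wt medium replicate 4 the response of MK2/3-/- against wt gave 0, beside 12 of all genes. Leaving out 1 array gave 3 to 5 calls after LPS in wt, 1 to 3, 1 to 4 and 0 to 2 with LPS (MK2-/- and MK2/3-/- against wt, then between the knockouts), 0 to 1 in medium for MK2-/- against wt and for the knockouts, and 0 to 1 for the response. Over all genes, these fits called 7589 to 9797 after LPS in wt. With LPS they called 1314 to 3183, 3500 to 5663 and 1805 to 3281 in the same order. In medium they called 779 to 2386 and 294 to 752, and for the response of MK2/3-/- against wt 9 to 564. The cause of these changes was not tested. The replicate block, by letter or by number (consensus correlation 0.144 and 0.118), changed no member's call. Same-letter samples deviated together (r over 0.1) in 7 of 10 pairs, against 5 of 30 for other letters, and all 10 same-letter pairs shared the age of the mouse. A shared animal and a shared age cannot be told apart in these pairs. The labels do not say what a letter marks and not every pair was over 0.1, so the fit without the block stayed the main one. Dim signal limits Egr3 and Nr4a3, which were well above background on 18 and 10 of 22 arrays.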
